A study of Mus musculus with 12 samples.

Results

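The miRNAs described here are mmu-miR-223-3p and mmu-miR-223-5p, the arms of a miRNA of neutrophils and monocytes, and mmu-miR-511-3p and mmu-miR-511-5p, the arms of a miRNA that lies inside the macrophage gene Mrc1; the species prefix is left off below. They were picked by name, with earlier results of these data known, and make up 4 of the 1929 rows of a table of raw mature miRNA counts. All 4 passed the filter on low counts. The tissue was liver of C57BL/6 mice, taken from 6 mice that received Pien Tze Huang (PZH), a compound remedy of Chinese medicine, and from 6 that received double distilled water, each dosed 1 time a day by the intragastric route. Every mouse of both groups was also injected intraperitoneally with carbon tetrachloride (CCl4), a hepatotoxin used to produce fibrosis, 2 times a week according to the labels. No uninjured livers were analysed, so each comparison is between injured livers. The labels give no age, sex, dose or length of treatment. Each library was made from its own liver sample, taken here as 1 mouse each; should samples share a mouse, p-values would measure only the spread between samples. Totals ran from 6065480 to 10436478 counts with PZH and from 4961913 to 20211784 with water. The hepatocyte miRNA miR-122-5p, which defines liver tissue, averaged 107900 ± 13911 CPM with PZH and 104140 ± 8000 CPM with water (CPM, the counts of a miRNA scaled to a common library size by TMM; SD, n = 6 each).

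A miRNA hairpin is cut into a 5p and a 3p strand, and usually 1 of them is loaded into Argonaute while the other is degraded. miR-223 is made mainly in cells of the granulocyte and monocyte lineages, where it restrains neutrophil activation and the inflammasome component Nlrp3, and its 3p strand is the loaded one. miR-511 is transcribed together with Mrc1, the mannose receptor of tissue macrophages and of the sinusoidal endothelium of the liver, and its 3p strand is the one known from alternatively activated macrophages.

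The mature sequences are shown because the arms of a hairpin recognise different targets through their seeds, bases 2 to 8, here in capitals. They come from RefSeq on GRCm38.p6, which held 3 of the 4 members by name.
miR-223-3p: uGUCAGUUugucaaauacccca
miR-223-5p: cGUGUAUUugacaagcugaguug
miR-511-3p: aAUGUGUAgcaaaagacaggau
The 3 seeds differ from each other, and none occurred as the seed of another of the 1679 mature mouse miRNAs in that table. The longest run shared with any other mature miRNA was 9 nt for miR-223-3p, 10 nt for miR-223-5p and 9 nt for miR-511-3p, so none of the 3 had a near-identical relative there.

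The hairpins are shown with these mature arms in capitals.
Mir223: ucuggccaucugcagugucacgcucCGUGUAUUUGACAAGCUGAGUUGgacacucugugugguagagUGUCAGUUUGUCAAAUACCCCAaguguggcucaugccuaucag
Mir511: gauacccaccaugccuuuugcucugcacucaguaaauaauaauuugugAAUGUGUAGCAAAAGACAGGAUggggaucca
Mir223 lies on the plus strand at chrX:96242817-96242926 (GRCm38), within an exon of the non-coding gene F630028O10Rik of the same strand. The nearest other gene is Vsig4, a complement receptor of Kupffer cells, 4277 bp away on the opposite strand. Mir511 lies on the plus strand at chr2:14261003-14261081 (GRCm38), in intron 5 of Mrc1, 107 bp before exon 6.

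The central question was whether the myeloid and macrophage miRNAs of injured liver differed between mice given PZH and mice given water. Of the 4 miRNAs, miR-223-3p was lower with PZH, at 0.667 times its level with water, and the other 3 were not called. Over all 607 tested miRNAs, 21.3% were called, 11.4% as lower and 9.88% as higher with PZH, and 1 call among 4 members is close to that background.

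The loaded arm miR-223-3p had a lowest level of 497, a median of 582 and a highest of 847 CPM in PZH livers, against 792, 937 and 1103 CPM in water livers. In 5 of the 6 PZH mice it was below every water mouse. The exception was PZH replicate 3, whose 847 CPM stood between the 844 CPM of water replicate 1 and the 911 CPM of water replicate 3. The means were 629 ± 141 CPM with PZH and 943 ± 119 CPM with water (SD, n = 6 each), a log2 fold change of -0.58 (SE 0.13, 95% interval -0.87 to -0.30, edgeR adjusted p = 0.00583). The call held with every alternative tried, with adjusted p between 0.00143 and 0.0222. By mean level it was number 90 of 1929 miRNAs with PZH and number 79 with water. Because whole liver was sequenced, fewer cells that hold miR-223 and less of it per cell cannot be told apart.

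The partner strand miR-223-5p had a lowest level of 9.86, a median of 21.4 and a highest of 28.3 CPM in PZH livers, against 14.8, 21.1 and 24.1 CPM in water livers. The PZH values lay on both sides of the water values, with 1 mouse below all 6 and 3 mice above all 6. The means were 20.6 ± 7.07 CPM with PZH and 20.9 ± 3.37 CPM with water (SD, n = 6 each; log2 fold change -0.02, SE 0.22, 95% interval -0.49 to 0.44, edgeR adjusted p = 0.944). The sign of this difference was positive with RLE and with total-count scaling, so it has no direction in these data.

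**Figure D1:**
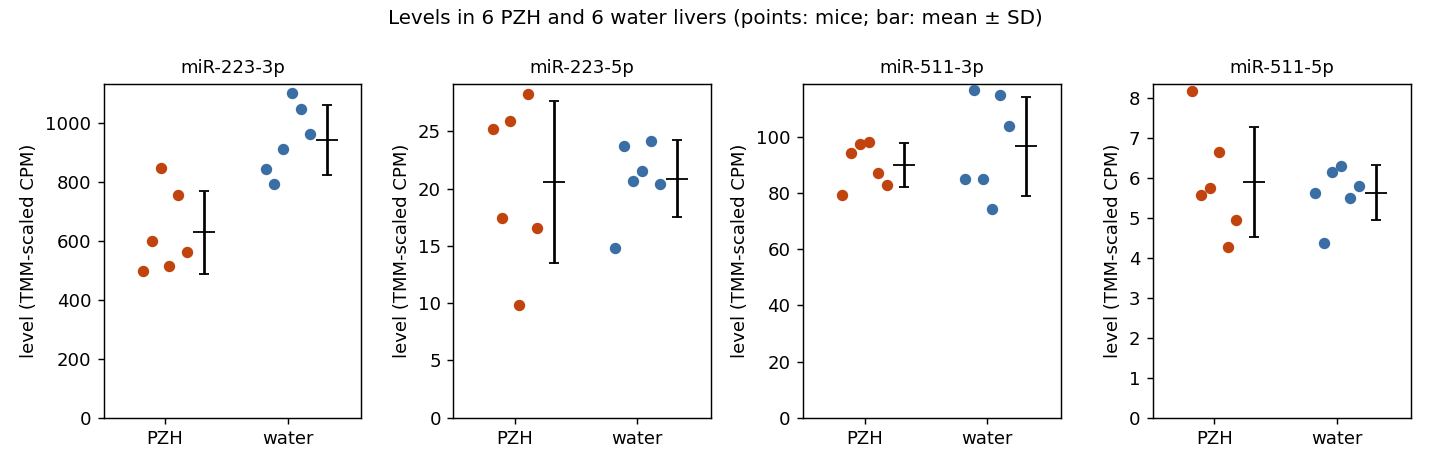
Level of each of the 4 miRNAs in TMM-scaled CPM (vertical axes, each from 0) in PZH livers and water livers; points are mice and bars are the mean ± SD of 6. For miR-223-3p, 5 of 6 PZH mice are below every water mouse, while for each of the other 3 miRNAs at most 1 PZH mouse is.

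The more abundant arm of the macrophage hairpin, miR-511-3p, had a lowest level of 79.4, a median of 90.7 and a highest of 98.2 CPM in PZH livers, against 74.2, 94.6 and 117 CPM in water livers. All 6 PZH mice lay within the range of the water mice. The means were 89.9 ± 7.93 CPM with PZH and 96.7 ± 17.7 CPM with water (SD, n = 6 each), and the log2 fold change was -0.10 (SE 0.12, 95% interval -0.37 to 0.16, edgeR adjusted p = 0.647). A fall as deep as the -0.58 of miR-223-3p lies outside that interval. Its rank by mean level was 182 with PZH and 180 with water.

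The minor arm miR-511-5p was the rarest of the 4, with 29 to 84 counts per library. Its lowest level was 4.28, its median 5.65 and its highest 8.16 CPM in PZH livers, against 4.38, 5.70 and 6.30 CPM in water livers. The groups overlapped, with 1 PZH mouse below and 2 above all water mice. The means were 5.89 ± 1.37 CPM with PZH and 5.62 ± 0.684 CPM with water (SD, n = 6 each; log2 fold change 0.07, SE 0.18, 95% interval -0.32 to 0.46, edgeR adjusted p = 0.883). The sign of this difference rested on PZH replicate 1, the mouse with 8.16 CPM, and without it the log2 fold change was -0.04.

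The 4 miRNAs differed in how much the mice of a group varied. For miR-223-3p the coefficient of variation between mice was 22.4% with PZH and 12.6% with water, where counting error alone gives 1.40% and 1.07%. For miR-223-5p it was 34.4% with PZH and 16.1% with water, beside a counting error of 7.98% and 7.28%. The macrophage arm miR-511-3p was the reverse, with 8.81% in PZH mice and 18.3% in water mice. For miR-511-5p it was 23.2% with PZH and 12.2% with water, and counting error alone gives 14.3% and 13.8%, so the spread between water mice in this arm was no larger than that of counting. Differences in spread between the groups were not tested.

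Both arms of a hairpin come from the same library, so their ratio needs no scaling between mice, although it carries any ligation preference of the library kit. The number of miR-223-3p counts per miR-223-5p count was lowest at 19.7, had a median of 33.3 and was highest at 52.1 in PZH livers, against 33.3, 45.6 and 57.1 in water livers. The means were 33.3 ± 10.8 with PZH and 46.1 ± 8.03 with water (SD, n = 6 each). PZH replicate 4 had the highest ratio of its group and the lowest miR-223-5p level of all 12 mice, and PZH replicate 1 had the lowest ratio of all.

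Tested over the 137 hairpins whose arms both averaged at least 20 counts, the log2 ratio of miR-223 differed by -0.51 (SE 0.20, 95% interval -0.95 to -0.08) and was not called (limma adjusted p = 0.125). Of these hairpins 8.03% were called, and 27.7%, miR-223 among them, had an unadjusted limma p under 0.05. The median difference was -0.06, and 84 of the 137 had fewer 3p counts per 5p count with PZH. In order of the difference miR-223 was number 11 from the most negative. A two-sided exact permutation test of this single ratio gave p = 0.0411, not adjusted for the other hairpins. Without PZH replicate 4 the difference was -0.65 and passed the threshold (limma adjusted p = 0.048). The fall of miR-223-3p was therefore not shown to differ from the change of its own partner strand.

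For miR-511 the number of 3p counts per 5p count was lowest at 9.74, had a median of 16.9 and was highest at 20.4 in PZH livers, against 11.8, 16.6 and 26.7 in water livers. The ranges of the groups overlapped. The log2 ratio differed by -0.14 (SE 0.21, 95% interval -0.59 to 0.32, limma adjusted p = 0.73). In every library the 3p arm of both hairpins was the more abundant.

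**Figure D2:**
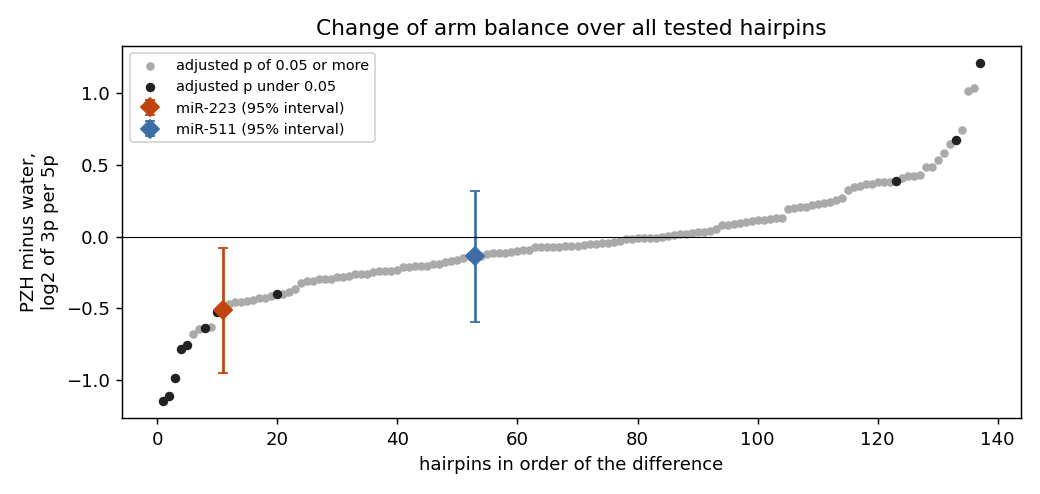
Difference between PZH and water in the log2 ratio of 3p to 5p counts (vertical axis) for 137 hairpins in order of that difference (horizontal axis); black points had a limma adjusted p under 0.05, and the diamonds with 95% intervals are miR-223 and miR-511. miR-223 stands at -0.51, number 11 from the most negative, and miR-511 at -0.14, with an interval that spans 0.

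Whether the abundant arms miR-223-3p and miR-511-3p moved by different amounts was tested within libraries, on the ratio of their counts. Since miR-223-3p was already called as lower, this ratio is not independent of that call. The exact permutation p-values of these ratios were not adjusted. The number of miR-223-3p counts per miR-511-3p count was lowest at 5.23, had a median of 6.58 and was highest at 8.67 in PZH livers, against 6.78, 9.58 and 14.9 in water livers. In 5 of 6 water mice this ratio was above that of every PZH mouse, and water replicate 2, at 6.78, lay among the PZH values. The mean log2 ratio was 2.78 with PZH and 3.30 with water, a difference of -0.51 (two-sided exact permutation p = 0.0152). With miR-511-5p as the partner the difference was -0.65 (exact permutation p = 0.0173). With the summed arms of each hairpin it was -0.51 (exact permutation p = 0.0152). Those sums are mostly 3p counts, so they are not a separate check.

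The same ratio was then taken to miR-142a-3p, a miRNA of all leukocytes, a partner chosen after the values were seen. The number of miR-223-3p counts per miR-142a-3p count was lowest at 0.514, had a median of 0.590 and was highest at 0.669 in PZH livers, against 0.633, 0.713 and 0.815 in water livers. The ranges overlapped at their edges. The log2 ratio differed by -0.28 (two-sided exact permutation p = 0.013), which is smaller than the -0.51 against miR-511-3p and the -0.65 against the hepatocyte miRNA miR-122-5p (exact permutation p = 0.0195). These ratios also hold miR-223-3p and are not independent of its call. The differences between these partners were not tested.

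**Figure D3:**
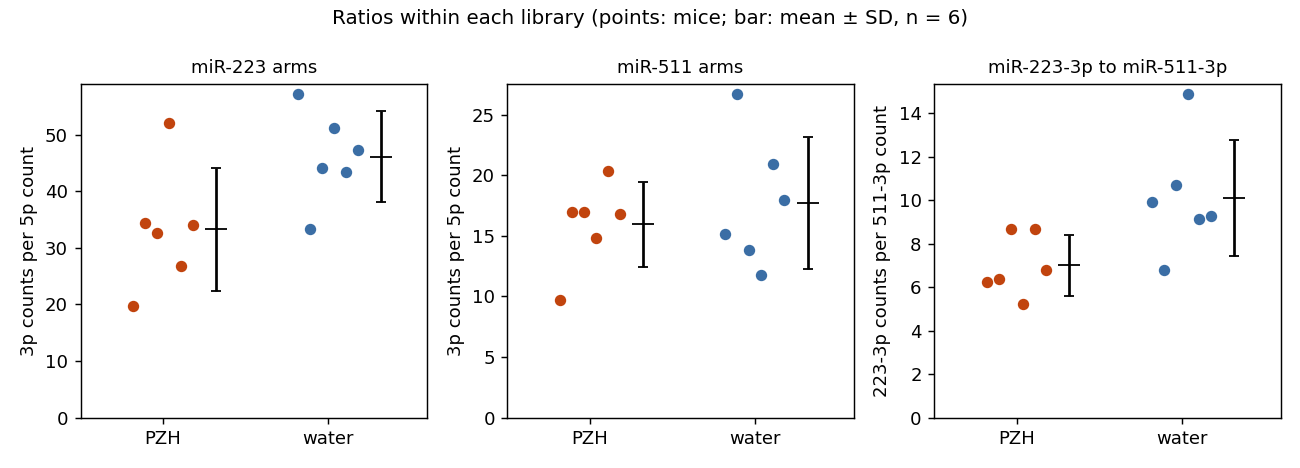
Counts of the 3p arm per count of the 5p arm for miR-223 and for miR-511, and counts of miR-223-3p per count of miR-511-3p, in each library (vertical axes from 0); points are mice and bars are the mean ± SD of 6. For miR-223-3p per miR-511-3p, PZH mice lie between 5.23 and 8.67 and water mice between 6.78 and 14.9.

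Other miRNAs of blood and tissue cells give the setting of the fall of miR-223-3p. Of the pan-leukocyte arms miR-142a-3p and miR-142a-5p, 0 of 2 were called by edgeR, DESeq2 or limma-voom, and 1 had an unadjusted p under 0.05, as did 32.3% of all tested miRNAs. For miR-142a-3p the means were 1060 ± 175 CPM with PZH and 1326 ± 237 CPM with water (SD, n = 6 each; log2 fold change -0.32, edgeR adjusted p = 0.092). The summed level of both arms ran from 2298 to 4236 CPM in PZH livers and from 2989 to 4422 CPM in water livers. Its part in the fall of miR-223-3p was not tested.

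Of 11 tested miRNAs linked to macrophage activation, 1 rose and 2 fell, beside 21.3% called over all 607, and the median log2 fold change was 0.04, beside -0.03 over all. An unadjusted edgeR p under 0.05 was found for 6 of the 11, in both directions, beside 32.3% of all tested miRNAs. DESeq2 called 2 as higher and 1 as lower. Those that fell were miR-146a-5p (-0.47), which damps NF-kB signalling, and miR-125a-5p (-0.34), and the one that rose was miR-99b-5p (0.31), whose hairpin is a neighbour of that of miR-125a. The edgeR adjusted p was 0.013 for miR-146a-5p, 0.0474 for miR-125a-5p and 0.0445 for miR-99b-5p. These calls were unequal in strength: that of miR-125a-5p ended in 15 of 22 alternatives, among them RLE and total-count scaling, DESeq2, the replicate block, and the omission of PZH replicate 3, 4, 5 or 6 or of water replicate 3, 4, 5 or 6 (log2 difference -0.38 to -0.24 over all alternatives). That of miR-99b-5p ended in 9 of 22, without PZH replicate 1, 2, 3 or 6 or any water replicate other than 2 (0.25 to 0.40 over all alternatives), and that of miR-146a-5p only without water replicate 4 (log2 difference -0.40, edgeR adjusted p = 0.0504). The list's summed level ran from 18250 to 24650 CPM in PZH livers and from 17740 to 23420 CPM in water livers.

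Of 4 tested lymphocyte miRNAs, miR-342-3p rose (log2 fold change 0.42, edgeR adjusted p = 0.0109) and none fell, with a median of 0.38. Over all tested miRNAs 21.3% were called, 9.88% as higher. An unadjusted edgeR p under 0.05 was found for 2 of the 4, beside 32.3% of all tested miRNAs. The sign of miR-342-3p is opposite to that of miR-223-3p. Their summed level ran from 2426 to 3687 CPM in PZH livers and from 2030 to 2831 CPM in water livers.

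Among miRNAs of other liver cells, both endothelial arms of miR-126a fell, miR-126a-3p (-0.36, edgeR adjusted p = 0.00281) and miR-126a-5p (-0.33, edgeR adjusted p = 0.0445). The second call was lost in 16 of 22 alternatives, such as limma-voom, DESeq2 and the omission of PZH replicate 1, 2, 3 or 5 or of any water replicate other than 2 (-0.41 to -0.25 over all alternatives). Of 6 hepatocyte miRNAs 1 fell, miR-802-5p (-0.65, edgeR adjusted p = 0.0138), with a median of -0.11, beside 11.4% of all tested miRNAs called as lower. Of 3 erythroid and 4 mesenchymal miRNAs edgeR, DESeq2 and limma-voom called 0, with medians of -0.31 and 0.12. In each list 1 had an unadjusted edgeR p under 0.05, beside 32.3% of all tested miRNAs. These were the red cell miRNA miR-451a (-0.31, edgeR adjusted p = 0.13) and the smooth muscle and stellate cell miRNA miR-145a-5p (0.19, edgeR adjusted p = 0.134).

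The summed levels of these lists overlapped between the groups. Taken alone, miR-126a-3p did not overlap, a trait shared by many tested miRNAs outside these lists, such as miR-501-3p and miR-455-3p. The call of miR-126a-3p held in all 22 alternatives. The mesenchymal sum was mostly miR-143-3p, at a mean of 61879 CPM with PZH and 62656 CPM with water. Endothelial miRNAs ran from 10270 to 13900 CPM in PZH livers and from 12860 to 17100 CPM in water livers, and erythroid ones from 2536 to 4728 CPM in PZH livers and from 3037 to 4915 CPM in water livers. Hepatocyte miRNAs summed to between 202900 and 264100 CPM in PZH livers and between 221400 and 256400 CPM in water livers, and mesenchymal ones to between 50190 and 87700 CPM in PZH livers and between 60410 and 87880 CPM in water livers. Their part in the fall of miR-223-3p was not tested.

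**Figure D4:**
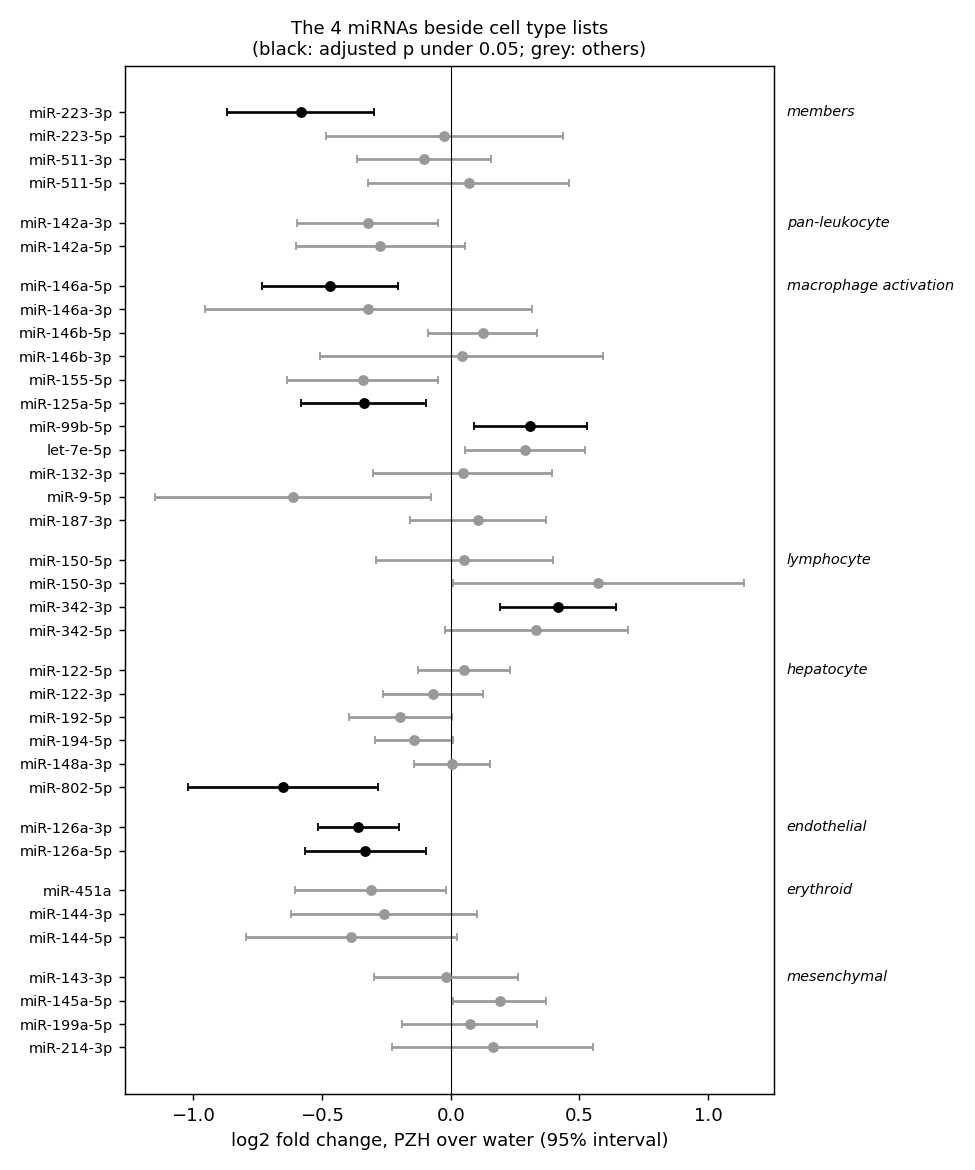
Log2 fold change of PZH over water with its 95% interval (horizontal axis) for the 4 miRNAs and for each tested member of the cell type lists (rows); black marks an edgeR adjusted p under 0.05. miR-223-3p stands at -0.58 and its partner arm at -0.02, the pan-leukocyte miR-142a-3p at -0.32 and the lymphocyte miR-342-3p at 0.42.

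Mouse by mouse, the level of miR-223-3p ran most closely with the leukocyte miRNA miR-142a-5p. After each group was centred on its mean, the 5 miRNAs of 339 with a mean of at least 10 CPM whose log2 level was most like that of miR-223-3p over the 12 libraries were miR-142a-5p (Pearson r = 0.92, Spearman rho = 0.86), miR-181c-5p (0.86, 0.83), miR-155-5p (0.84, 0.69), miR-181a-5p (0.83, 0.64) and miR-199a-5p (0.81, 0.83). These r are a description of the same 12 libraries, which share their scaling, and carry no test. The other arm miR-142a-3p came next, as number 6 (r = 0.81), and miR-223-5p was lower in the order, with r = 0.53. Within the groups, r for miR-142a-5p was 0.94 in PZH mice and 0.87 in water mice. Since miR-142a-5p was picked by its r over these same mice, this is no separate check. The likeness was not confined to leukocyte miRNAs, since miR-199a-5p is on the mesenchymal list. For miR-199a-5p r was 0.91 in PZH mice and 0.46 in water mice.

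The miRNAs most like miR-511-3p by the same measure were miR-1a-3p (r = 0.74, rho = 0.78), miR-872-5p (0.71, 0.64), miR-374b-5p (0.70, 0.57), miR-224-5p (0.68, 0.69) and miR-26b-5p (0.65, 0.66). None of the leukocyte miRNAs was among them, and miR-511-3p stood at r = 0.00 with miR-223-3p and 0.11 with miR-142a-5p. The muscle miRNA miR-1a-3p averaged 17.1 ± 10.3 CPM with PZH and 24.6 ± 23.3 CPM with water (SD, n = 6 each), so its order of mice rests on a wide spread.

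**Figure D5:**
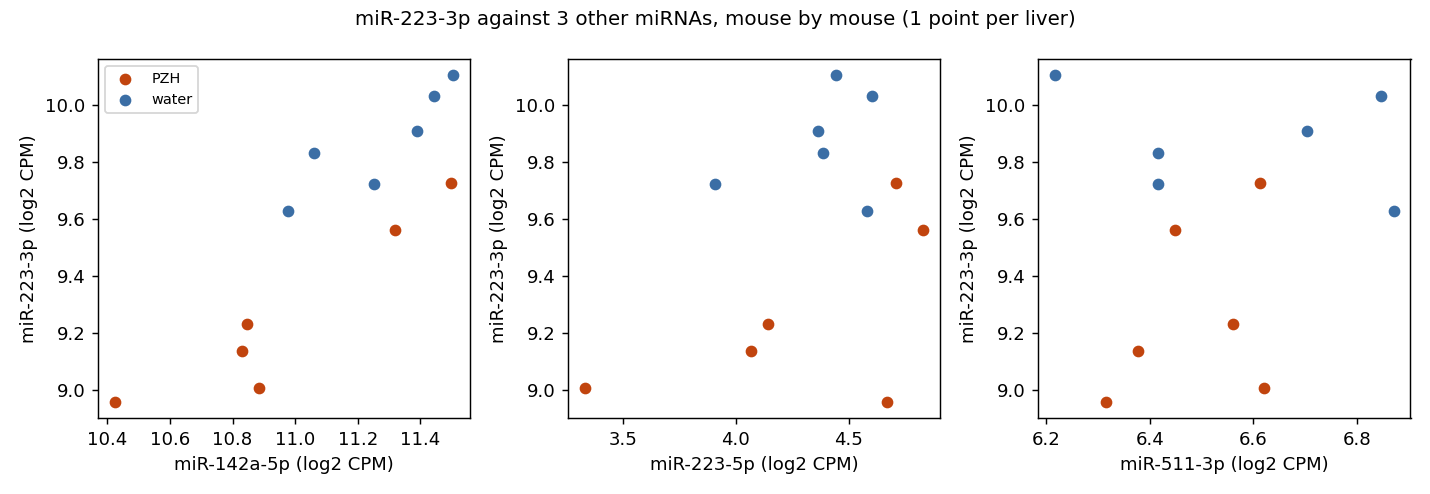
Log2 CPM of miR-223-3p (vertical axes) against that of miR-142a-5p, miR-223-5p and miR-511-3p (horizontal axes), with 1 point per liver, coloured by group. Within each group miR-223-3p rises with miR-142a-5p (r = 0.94 in PZH mice and 0.87 in water mice) and shows no such order with miR-511-3p. miR-142a-5p was picked as the most alike over these same livers.

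Relations among the members themselves were tested within each group, 6 in all, with exact permutation p over 720 pairings and Benjamini-Hochberg adjustment. None passed. Between the arms of miR-223, Pearson r was 0.59 in PZH mice (rho 0.60; exact permutation p = 0.222 and 0.242, adjusted 0.667 and 0.725) and 0.31 in water mice (rho 0.26; exact permutation p = 0.601 and 0.658, adjusted 0.722 and 0.79). Between the arms of miR-511, r was -0.11 in PZH mice (rho 0.09; exact permutation p = 0.836 and 0.919, adjusted 0.836 and 0.919) and -0.75 in water mice (rho -0.83; exact permutation p = 0.0486 and 0.0583, adjusted 0.292 and 0.35). Between miR-223-3p and miR-511-3p, r was 0.38 in PZH mice (rho 0.37; exact permutation p = 0.426 and 0.497, adjusted 0.722 and 0.746) and -0.32 in water mice (rho -0.43; exact permutation p = 0.521 and 0.419, adjusted 0.722 and 0.746).

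Without the 2 libraries farthest from the median of the first miRNA of a pair, r was computed again over the remaining 4 mice. In PZH mice it became -0.04 for the arms of miR-223, 0.96 for those of miR-511 and 0.30 for miR-223-3p with miR-511-3p. In water mice it became 0.93, -0.57 and 0.93 in the same order. None passed over these 4 mice, with adjusted exact permutation p of 0.125 or more for r. The sign changed for the arms of miR-223 and of miR-511 in PZH mice and for miR-223-3p with miR-511-3p in water mice, so these 3 values rest on the 2 libraries left out.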

How the data were processed

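The authors deposited whole-number raw counts per mature miRNA, not normalized, for 12 libraries. Per the labels' protocols, Trizol was used for RNA extraction and TruSeq small RNA chemistry for library preparation. The submitters' processing notes name cutadapt, FastQC, BWA, DESeq2 and GRCm38, without versions; how reads were counted, and where reads matching more than 1 miRNA went, is not given in the sources used here. The table holds 0 entries equal to 1, and the lowest count of a member was 29. The counting errors given above treat every read as a separate count, since reads carry no molecular identifiers. Intervals are given only for differences between the groups, come from the edgeR and limma fits, and include the spread between mice.

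Levels in PZH and water livers were compared in edgeR 4.0.16 (R 4.3.3) by its quasi-likelihood test after TMM scaling and filterByExpr, which kept 607 miRNAs, with Benjamini-Hochberg adjustment over all of them and calls under 0.05. Levels are CPM after TMM scaling, and log2 levels used a prior count of 2. Arm ratios were tested with limma 3.58.1 on log2 counts with a pseudocount of 1, and single ratios with two-sided exact permutation tests. Members, lists and naming rule (members, called list miRNAs, the smallest p of each list, the 5 most alike) were chosen with earlier results of these data known. Both groups use the replicate numbers 1 to 6, and no source pairs the mice. Results were recomputed with other scalings (RLE, TMMwsp, total count), other filters, DESeq2 1.42.0, limma-voom with and without quality weights, robust edgeR, a replicate block, other pseudocounts and partners, and each library left out in turn. On simulated counts edgeR recovered 51.1% of 47 changes of 1.5-fold and 87.5% of 48 of 2-fold among 606 miRNAs, with 6.2% of calls false. There limma recovered 20 of 20 arm changes of 2-fold among 136 hairpins, with 1 false call. Arm changes smaller than 2-fold, such as that of miR-223, were not simulated.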

Additional observations from a re-analysis of the deposited data

How the results depend on the processing

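The lower level of miR-223-3p with PZH was called under all 22 alternatives (log2 fold change -0.68 to -0.49), and its ratio to miR-511-3p kept an exact permutation p under 0.05 with other pseudocounts, with the replicate block and with each library left out (-0.62 to -0.39). Ratios to other partners did so too: -0.65 to miR-511-5p, -0.28 to miR-142a-3p and -0.65 to miR-122-5p, the last 2 partners chosen after seeing the data, and -0.51 between the summed arms. Those sums are mostly 3p counts. Every one of these ratios holds miR-223-3p, so none is independent of its call. The difference of miR-223-5p changed sign in 11 of 22, with no call in any: it was 0.0133 with RLE scaling, 0.0375 with total-count scaling, 0.0164 without a filter, 0.0644 with a filter of 10 CPM in 6 libraries, 0.0137 with DESeq2, and between -0.12 and 0.11 with 1 library left out. That of miR-511-5p lay between -0.0402 and 0.166 with 1 library left out, and the filter of 10 CPM removed this miRNA. The arm ratio of miR-223 was called by limma in 1 alternative, without PZH replicate 4, and lay between -0.65 and -0.37 with 1 library left out; the exact permutation test gave the same -0.51 with an unadjusted p = 0.0411. The arm ratio of miR-511 lay between -0.24 and -0.002 with 1 library left out, with no call. The 129 calls over all miRNAs numbered between 99 and 139 with 1 library left out, and the 69 lower ones were 35 with the filter of 10 CPM, where fewer miRNAs are tested. The endothelial list had 1 call with DESeq2 and 1 with limma-voom. Of the correlations, that of the miR-511 arms in PZH mice was 0.0525 with total-count scaling and 0.96 without the 2 libraries farthest from the median; without 2 libraries that of the miR-223 arms in PZH mice was -0.0393 and that of miR-223-3p with miR-511-3p in water mice 0.93. The cause of these changes was not tested, and none of these correlations passed after adjustment.

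With the replicate number as a block the log2 fold changes were -0.60 for miR-223-3p (edgeR adjusted p = 0.00997), -0.08 for miR-223-5p, -0.09 for miR-511-3p and 0.05 for miR-511-5p, and 114 miRNAs were called. The block left the arm differences at -0.51 and -0.14 and gave p = 0.0312 for the ratio of miR-223-3p to miR-511-3p (exact permutation over 64 sign changes). Same-numbered libraries correlated between -0.15 and 0.08 after centring, and 1 of 6 water libraries correlated best with its own number. Depth limits miR-511-5p most, at 29 to 84 counts per library.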
